A study of Mus musculus with 12 samples.

Results

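The comparison described here is the response of CD8 T cells that carried a Batf3 vector to 6 h of stimulation through CD3 and CD28, taken as the 3 stimulated against the 3 non-stimulated Batf3-vector libraries, 6 of 12 libraries in the series. The libraries were chosen by the names of their columns in the deposited count table, and all 55335 genes of that table entered, of which 15702 had enough counts to be tested. The cells came from the spleens of OT-I mice on a C57BL/6 background, whose T cells carry a transgenic receptor for an ovalbumin peptide, and were given a retroviral vector that held Batf3 or was empty (control), after which transduced cells were sorted. Batf3-vector cells and control-vector cells were each either stimulated, with plate-bound antibody to CD3e and antibody to CD28 at 1 µg/ml each, or left non-stimulated. The labels name IL-15, at 100 ng/ml, for the non-stimulated cultures only, so the antibodies and the absence of IL-15 cannot be told apart. All groups shared the mouse strain, the retroviral transduction and the sort. The labels call the 3 libraries of a group technical replicates, so every SD, SE and p-value here measures technical spread and none covers mice or transductions.

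Signals from the T cell receptor and from CD28 meet in a few pathways. Calcium activates NFAT, the kinases ERK and JNK activate AP-1 (dimers of FOS and JUN family proteins), and protein kinase C theta activates NF-kB. Together they switch on cytokine genes and MYC, and MYC with the nutrient transporters prepares the cell to grow and divide. BATF3 is a member of the AP-1 family that lacks a transactivation domain and pairs with JUN proteins, and the related BATF binds composite sites together with IRF4.

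Total counts of the 6 Batf3-vector libraries lay between 14211564 and 14286315, and over all 12 between 14211564 and 14468231. Levels are given as CPM, reads of a gene relative to the library total after scaling with TMM factors (trimmed mean of M values), so a count of 3 in a single library stood for 0.191 to 0.229 CPM. Mitochondrially encoded genes held 1.64 to 2.31% of the counts of a library. The 3 libraries of a group lay close together, with a median coefficient of variation between libraries of 4.39% in stimulated and 3.89% in non-stimulated Batf3-vector cells over genes above 10 CPM.

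Batf3 itself (ENSMUSG00000026630, chromosome 1, 191097847 to 191108945, GRCm38) checked the labels. It stood at 435, 414 and 434 CPM in stimulated Batf3-vector cells, against 475, 468 and 469 CPM in non-stimulated ones. In control-vector cells it averaged 18.4 ± 0.735 CPM with stimulation and 6.77 ± 0.833 CPM without (SD, n = 3 each). The count table does not separate transcripts of the vector from those of the endogenous gene. The labelled cell type was checked against its markers. Cd8a, the CD8 coreceptor chain, averaged 622 CPM in stimulated and 652 CPM in non-stimulated Batf3-vector cells, and Cd3e averaged 106 and 168 CPM in the same order. Of 9 CD8 T cell markers 2 rose and 7 fell, 3 of them at least 2-fold, with a median log2 change of -0.67. Their summed level was 2196 to 2230 CPM in stimulated against 2914 to 2919 CPM in non-stimulated libraries. Cd4 averaged 0.321 CPM in stimulated and 0.149 CPM in non-stimulated cells, and Ms4a1, Lyz2, Ncr1 and S100a8 each averaged under 0.2 CPM in both groups. Some genes that other lymphocytes use were present. Ighm averaged 38.4 CPM in stimulated and 396 CPM in non-stimulated cells, and Klrd1 22 and 202 CPM. Pecam1, an endothelial marker that T cells also express, averaged 6.2 and 50.8 CPM. The summed level of 10 B cell markers was 41.5 to 44.7 CPM in stimulated against 400 to 417 CPM in non-stimulated libraries, nearly all of it Ighm, while that of 11 NK cell markers was 75.2 to 88.4 against 362 to 393 CPM. The summed level of 6 CD4 T cell markers was 523 to 550 CPM in stimulated against 46.3 to 49.1 CPM in non-stimulated libraries, most of it Tnfrsf4 and Cd40lg, and that of 10 dendritic cell markers was 63.4 to 67.9 against 37.3 to 39.7 CPM, most of it Itgax. For 11 macrophage markers the sum was 17.1 to 19.2 against 15.5 to 16.8 CPM, for 9 neutrophil markers 5.64 to 6.20 against 1.85 to 2.69 CPM, for 8 stromal markers 7.42 to 8.70 against 53.8 to 54.5 CPM, and for 8 erythroid markers 0.443 to 0.893 against 1.54 to 3.91 CPM. The part of these cells in the changes below was not tested. In bulk RNA, fewer cells of a type and less RNA per cell cannot be told apart.

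Promoter sequences were examined first, since the AP-1, NFAT and NF-kB factors that the receptor activates bind known short motifs. A RefSeq promoter (250 bases before to 50 bases after a gene's start, GRCm38.p6) was found for 13 of the 15 genes with the largest rises among those above 10 CPM in the higher group. AP-1 sites were searched as TGANTCA, NFAT sites as GGAAAA, the cyclic AMP response element (CRE) as TGACGTCA, and NF-kB sites as GGG, any 2 bases and TTTCC, each on both strands. BATF-IRF composite motifs in a spaced and an adjacent form, which contain the AP-1 motif, were searched as well. Of the 13 promoters, Il1a and Ccl9 were those with an AP-1 match and are shown for that reason. Il2 and Ccl1, shown because each had 2 NFAT matches, were chosen after the matches were seen. Capitals mark AP-1, NFAT and NF-kB matches (an NFAT match on the other strand reads TTTTCC).
Il1a promoter, chr2:129309923-129310222, minus strand: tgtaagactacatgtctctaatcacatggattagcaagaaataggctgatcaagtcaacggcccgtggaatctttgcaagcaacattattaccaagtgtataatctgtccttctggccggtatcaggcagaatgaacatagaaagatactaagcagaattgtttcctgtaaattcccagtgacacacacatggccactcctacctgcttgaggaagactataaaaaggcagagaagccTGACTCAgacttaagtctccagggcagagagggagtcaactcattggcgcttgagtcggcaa
Ccl9 promoter, chr11:83578587-83578886, minus strand: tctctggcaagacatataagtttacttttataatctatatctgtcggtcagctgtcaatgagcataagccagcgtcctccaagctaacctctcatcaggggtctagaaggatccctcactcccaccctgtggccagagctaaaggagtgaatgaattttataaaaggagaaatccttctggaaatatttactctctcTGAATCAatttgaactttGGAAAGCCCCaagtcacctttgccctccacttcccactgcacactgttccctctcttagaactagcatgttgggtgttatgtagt
Il2 promoter, chr3:37125905-37126204, minus strand: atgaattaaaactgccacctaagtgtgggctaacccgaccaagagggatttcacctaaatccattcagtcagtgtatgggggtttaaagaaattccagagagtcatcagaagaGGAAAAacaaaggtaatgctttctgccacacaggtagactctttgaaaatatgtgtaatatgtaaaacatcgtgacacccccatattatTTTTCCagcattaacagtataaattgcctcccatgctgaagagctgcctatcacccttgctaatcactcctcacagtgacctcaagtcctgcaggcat
Ccl1 promoter, chr11:82179763-82180062, minus strand: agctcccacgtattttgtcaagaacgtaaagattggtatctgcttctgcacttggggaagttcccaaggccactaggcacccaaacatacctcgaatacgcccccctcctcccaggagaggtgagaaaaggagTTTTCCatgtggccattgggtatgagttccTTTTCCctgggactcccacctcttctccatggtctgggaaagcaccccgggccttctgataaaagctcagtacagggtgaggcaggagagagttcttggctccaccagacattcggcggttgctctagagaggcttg
In Il1a the AP-1 match began 12 bases before the gene's start, and in Ccl9 it began 53 bases before it, with an NF-kB match to its right. Il3, Xcl1, Csf2, Ifng, Idi2 and Inhba had no match to any of these motifs in the window. Over all promoters of tested genes, 5.33% of 12759 held an AP-1 match, while 8.44% of the 936 promoters of genes called at least 4-fold higher and 6.71% of the 1505 promoters of genes called at least 4-fold lower did. NF-kB matches were found in 3.53% of promoters of the higher genes, 1.46% of those of the lower genes and 1.79% of all. NFAT matches were found in 22.8, 20.6 and 20.9% of promoters in the same order, and CRE matches in 2.67, 0.997 and 3.06%. BATF-IRF composites were found in 2 of the 936 promoters of higher genes in the spaced form and in none in the adjacent form, against 0.0784% and 0.0941% of all promoters. A match is a run of letters and not a measured binding site.

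Stimulation changed most of the transcriptome of Batf3-vector cells. Of 15702 tested genes, 6477 (41.2%) were higher and 6508 (41.4%) lower in stimulated cells at a Benjamini-Hochberg adjusted p under 0.05 in edgeR's quasi-likelihood fit, the rule by which a gene is called here. At least 2-fold changes were called for 2953 higher (18.8%) and 3828 lower genes (24.4%), and at least 4-fold changes for 1130 higher (7.2%) and 1677 lower genes (10.7%). The median log2 change of all tested genes was 0.01. With so large a share of genes called, the count of called members of a gene group says little by itself, so each count is given with the median log2 change of its tested members. A list with like counts in both directions lies near the shares of all tested genes. Scaling by library size alone would lower every log2 change by about 0.21 (the median of all genes moved by -0.21). Medians from 0 up to about 0.21 therefore have no settled direction, while negative medians become more negative under that scaling.

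Several secreted signals were among the largest rises. Il3 (ENSMUSG00000018914, chromosome 11, 54265303 to 54267277), a growth factor for myeloid progenitors and mast cells, stood at 1293, 1295 and 1314 CPM in stimulated cells, against 0.255, 0.0641 and 0.192 CPM in non-stimulated cells. Its log2 change was 12.82 ± 0.51 (SE). Il2 (chromosome 3, 37120523 to 37125959), the T cell growth factor, stood at 2987, 3128 and 3055 CPM against 4.27, 3.52 and 4.23 CPM, a log2 change of 9.57 ± 0.11 (adjusted p = 3.82e-82 by edgeR's test). The groups were far apart in both genes, with every stimulated library far above every non-stimulated one. Ifng (chromosome 10, 118441046 to 118445892), interferon gamma, had the highest level among the cytokines, 11898, 11661 and 11583 CPM in stimulated cells against 16.4, 17.2 and 14.2 CPM in non-stimulated cells, a log2 change of 9.52 ± 0.062. Csf2, which encodes GM-CSF, averaged 228 against 0.298 CPM (9.53 ± 0.39). Tnf, the prototype of its family, averaged 2035 ± 13.2 CPM in stimulated and 52.3 ± 3.21 CPM in non-stimulated cells (SD, n = 3 each), so it was already transcribed without the antibodies and rose by 5.28 ± 0.043.

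Of 23 tested cytokines 18 rose and 5 fell, with a median log2 change of 3.26, and together the cytokine list held 1.85% of all counts in stimulated and 0.09% in non-stimulated Batf3-vector cells. Il13, a cytokine better known from type 2 helper cells, had no count in the 3 non-stimulated libraries and averaged 25.4 CPM in stimulated cells, at least 398-fold higher against a floor of 3 counts over the group. Il17a and Il21 also had no counts without stimulation and averaged 5.95 and 2.08 CPM with it. Il10, an anti-inflammatory cytokine, averaged 17.1 against 0.192 CPM (6.42 ± 0.49), and Il23a, a subunit of IL-23, 71.4 against 0.512 CPM (7.10 ± 0.30). Il1a, the alarmin interleukin 1 alpha, averaged 601 against 0.319 CPM. Inhba, a subunit of activin A, stood at 134, 135 and 120 CPM in stimulated cells and had 3 counts in all over the non-stimulated libraries, a ratio of 2020 with a 95% counting interval of 692 to 9810. Idi2, an isopentenyl diphosphate isomerase, had no count without stimulation and was at least 631-fold higher with it. The 5 that fell were Tgfb3 (-3.60), Osm (-2.85), Il16 (-1.86), Csf1 (-0.88) and Ltb (-0.68). Osm, which encodes oncostatin M and is a known target of STAT5, averaged 19.7 CPM in stimulated and 142 CPM in non-stimulated cells. Il4, Il5, Il6, Il9 and Il22 had too few counts to be tested.

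Chemokines rose with them. Xcl1 (chromosome 1, 164931644 to 164935527), lymphotactin, whose receptor XCR1 marks cross-presenting dendritic cells, stood at 10636, 10238 and 10391 CPM in stimulated cells, against 5.93, 5.51 and 4.61 CPM in non-stimulated cells. Its log2 change was 10.92 ± 0.096, and the libraries of the groups did not overlap. Ccl3 and Ccl4, inflammatory chemokines, averaged 6162 and 5990 CPM in stimulated against 3.92 and 10.2 CPM in non-stimulated cells. Ccl1, the ligand of CCR8, averaged 2950 against 1.09 CPM, and Ccl9 124 against 0.0852 CPM. Ccl5, which resting memory and effector cells already transcribe, rose least of the CCL genes tested, to 619 CPM against 239 CPM (1.37). Cxcl10 rose by 0.49 only, and Cxcl11 was not called (0.741 against 1.17 CPM). In all, 11 of 12 tested chemokines rose and none fell, with a median log2 change of 5.35, and the list held 2.50% of the counts of stimulated and 0.04% of those of non-stimulated cells. Xcl1, Ifng, Ccl3, Ccl4, Ccl1 and Il2, picked after their high levels were seen, made up 3.77 to 3.86% of all counts in the stimulated libraries.

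Ligands and receptors of the TNF family changed in both directions. Of 10 tested ligands 7 rose and 2 fell (median 3.89). Cd70, the ligand of CD27, had no count in non-stimulated cells and averaged 61.8 CPM in stimulated cells, at least 966-fold higher. Tnfsf11, which encodes RANKL, averaged 237 against 2.35 CPM (6.65 ± 0.14), Tnfsf14, which encodes LIGHT, 540 against 7.31 CPM, and Cd40lg, better known from helper cells, 56.6 against 1.05 CPM. Fasl, the death ligand of cytotoxic cells, was not called, at 56.3 against 52.2 CPM. Tnfsf13b, which encodes BAFF, fell by 4.18, to 0.223 CPM against 4.18 CPM. Among 13 tested receptors 8 rose and 4 fell (median 1.14). Tnfrsf4 (OX40) stood at 452, 449 and 471 CPM in stimulated cells against 7.71, 6.73 and 7.18 CPM in non-stimulated cells (5.99 ± 0.086), and Tnfrsf9 (4-1BB), a common marker of recent antigen contact, averaged 966 against 156 CPM. Tnfrsf26 fell, to 5.46 CPM against 91.3 CPM.

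**Figure D1:**
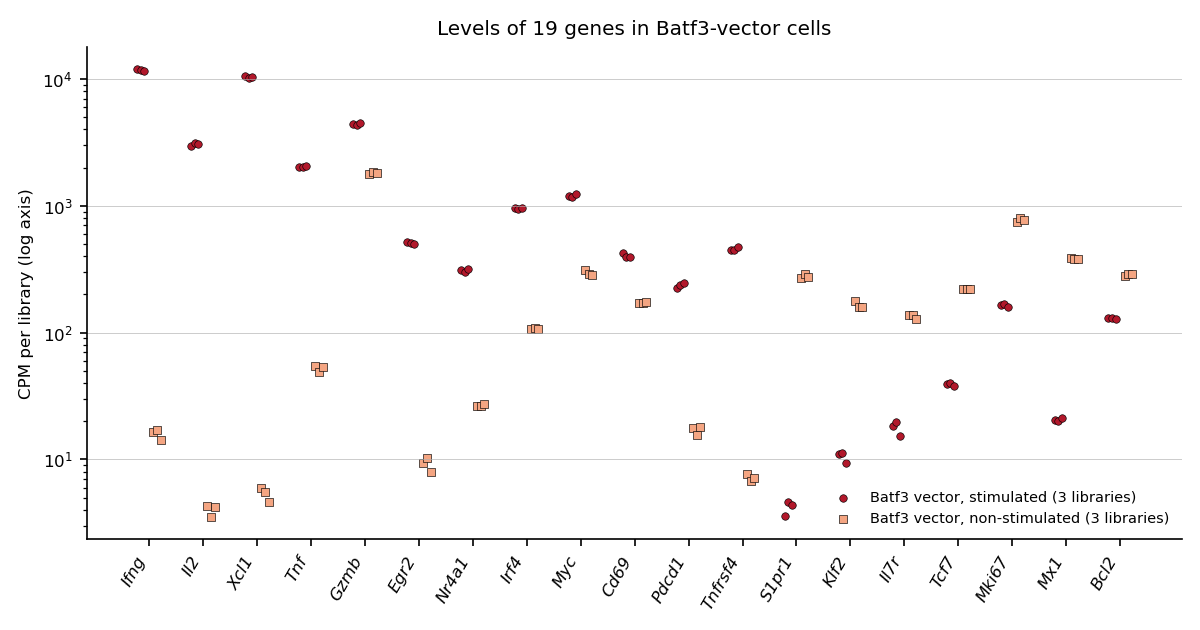
CPM (log axis) of 19 genes in each of the 3 stimulated (circles) and 3 non-stimulated (squares) Batf3-vector libraries. Stimulated libraries lie above the non-stimulated ones for the 12 genes on the left and below them for the 7 on the right, with no overlap in any.

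Transcription factors that the receptor is known to induce rose as well. Egr2 (chromosome 10, 67535475 to 67542188), an NFAT and ERK target, stood at 515, 505 and 499 CPM in stimulated cells against 9.37, 10.2 and 8.01 CPM in non-stimulated cells (5.78 ± 0.077). Nr4a1, the orphan nuclear receptor used as a reporter of receptor signal strength, stood at 313, 301 and 317 CPM against 26.3, 26.3 and 27.3 CPM (3.54 ± 0.054), and Nr4a3 averaged 635 against 11.3 CPM. In both Egr2 and Nr4a1 every stimulated library was above every non-stimulated one. Subunits of AP-1 ranged widely. Fos averaged 46.2 ± 2.27 CPM in stimulated and 18.4 ± 1.25 CPM in non-stimulated cells (SD, n = 3 each), a log2 change of 1.33 ± 0.073, and Junb rose by 1.32, Jun by 0.56. Fosl1, which encodes FRA1, had 352 counts against 2 over the 3 libraries, a ratio of 204 with a 95% counting interval of 56 to 1690. Jund fell slightly (-0.25). Of 25 immediate early genes 20 rose and 4 fell (median 1.33), the falls being Nfil3 (-1.70), Zfp36 (-0.81), Crem (-0.65) and Jund.

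Partners of BATF3 among the IRF factors rose, and interferon-linked IRF genes fell. Irf4, which scales with receptor signal and pairs with BATF proteins, stood at 965, 951 and 956 CPM in stimulated cells against 106, 108 and 108 CPM in non-stimulated cells (3.16 ± 0.038). Irf8 averaged 365 against 76.2 CPM (2.26 ± 0.042). Batf averaged 28.2 against 20.5 CPM, a rise of 0.46. Irf7 (-3.42), Irf2 (-1.92), Irf1 (-1.75) and Irf9 (-1.21) fell, and Irf3 was not called. Bach1 rose by 1.98 and Bach2, a repressor at AP-1 sites, by 0.29. In this list of 14 tested genes, 8 rose and 5 fell, Batf3 among the falls, with a median of 0.37.

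In the NF-kB pathway subunits and inhibitors rose together. Rel, the subunit most tied to T cell activation, stood at 653, 677 and 624 CPM in stimulated cells against 39.7, 41.5 and 40.8 CPM in non-stimulated cells (a log2 change of 4.0 ± 0.047). Nfkb1 averaged 1789.7 against 281 CPM. The inhibitors Nfkbid (3.86), Nfkbib (2.57), Nfkbia (1.87) and the ubiquitin editor Tnfaip3 (3.00) rose as well. In all 16 of 20 rose and 4 fell (median 1.87), the falls being Cyld (-1.45), Map3k14 (-0.65), Ikbke (-0.56) and Bcl3 (-0.27). Calcium signalling genes went mostly the other way, with 6 of 22 higher and 16 lower (median -0.62). Orai1, the pore of the store-operated calcium channel, rose to 94.5 CPM against 19.1 CPM, while its sensor Stim1 fell to 16.5 CPM against 95.7 CPM. Nfat5 (2.38) and Nfatc1 (1.30), the NFAT gene with an inducible promoter, rose. Nfatc3 (-1.71), Nfatc2 (-0.60), Itpr3 (-2.95) and the calcineurin gene Ppp3cc (-2.45) fell.

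Brakes on MAP kinase signalling mostly rose, with 12 of 16 higher and 3 lower (median 1.94). Spry1, an inhibitor of RAS signalling, averaged 135 against 0.704 CPM (7.56), Dusp4, a phosphatase of nuclear ERK, 451 against 9.81 CPM (5.52), and Dusp14 42.9 against 0.96 CPM (5.47 ± 0.23). Dusp10 (-1.41), Dusp7 (-1.36) and Dusp6 (-0.34) fell. The proximal machinery of the receptor split, with 14 of 32 genes higher and 16 lower (median -0.06). Of all tested genes 41.2% were higher and 41.4% lower, so as a list it lay near all genes. Cd6 averaged 637 against 57 CPM (3.48 ± 0.043), Cd5, another negative regulator at the receptor, 399 against 36.5 CPM, and Lcp2, the adaptor SLP-76, 1017 against 265 CPM. Dgka, the kinase that removes diacylglycerol, stood at 13.8, 15.8 and 15 CPM in stimulated cells against 422, 420 and 420 CPM in non-stimulated cells (-4.82 ± 0.068). Grap2 (-3.42), Prkcq (-3.16), which encodes protein kinase C theta, Lck (-1.18) and Cd3g (-1.47) fell too. Under scaling by library size alone, 10 of these 32 genes were higher and 18 lower.

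Most genes of cytotoxic granules rose, while inhibitory receptors went both ways. Gzmb, which encodes granzyme B, stood at 4396, 4328 and 4463 CPM in stimulated against 1793, 1832 and 1826 CPM in non-stimulated cells (1.27 ± 0.032), with no overlap. Prf1, perforin, averaged 160 against 15.8 CPM (3.34 ± 0.066). Serpinb9, the inhibitor that protects the cell from its own granzyme B, averaged 1257 against 49.9 CPM, and Serpinb6b 782 against 17.7 CPM. Gzma (-0.54) and Gzmk (-5.29), granzymes of other effector and memory states, fell. Of 20 tested granule genes 14 rose and 5 fell (median 1.55), and reads of near-identical granzyme genes may be split between them. Pdcd1 (PD-1) stood at 227, 237 and 245 CPM in stimulated cells against 17.7, 15.6 and 17.9 CPM in non-stimulated cells (3.79 ± 0.063), and Havcr2 (TIM-3) averaged 219 against 3.75 CPM. Lag3 (2.09), Tigit (1.76) and Btla (1.73) rose, while Cd28 itself fell to 51.7 CPM against 194 CPM (-1.91). Lair1 (-3.85), Entpd1 (-3.36), which encodes CD39, and Cd226 (-2.82) fell. Of this list of 21, 11 rose and 9 fell (median 0.54).

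S1pr1 (chromosome 3, 115710433 to 115715072), the receptor by which T cells leave lymphoid tissue, stood at 3.57, 4.6 and 4.35 CPM in stimulated cells, against 272, 290 and 276 CPM in non-stimulated cells (-6.06 ± 0.12). S1pr4 averaged 4.74 against 155 CPM, and Itgb3, integrin beta 3, 1.58 against 106 CPM (-6.06 ± 0.19). These were among the 15 largest falls of genes above 10 CPM in the higher group, with predicted, receptor segment and pseudogene entries left out. The remaining genes of those 15 were Mettl7a1, Pimreg, Baiap3, Arhgef18, Ifit1bl1, Nacc2, Nsg2, Ifi209, Osbpl5, Gpld1, Abcg3 and Ifi208, with log2 changes between -5.86 and -5.04. Ifi209, an interferon-inducible gene of a family of close paralogs, averaged 27.2 against 935 CPM. Of 25 tested homing and residency receptors 7 rose and 17 fell (median -1.21). Itgb7, Selplg and Ccr2 fell by 4.04, 3.88 and 3.97. Cd44 (2.65) and Cd69 (1.23 ± 0.037), the early activation marker that holds S1PR1 inside the cell, rose.

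Of 27 quiescence and survival genes 21 fell and 3 rose (median -1.86). Klf2, which drives S1pr1, stood at 11.1, 11.2 and 9.44 CPM in stimulated cells against 178, 158 and 160 CPM in non-stimulated cells (-3.97 ± 0.08). Pik3ip1 (-4.99), a brake on PI3 kinase, Pdcd4 (-4.12), Cdkn1b (-3.88), which encodes p27, and Txnip (-3.41), which restrains glucose uptake, fell. Il7r, the receptor of the survival cytokine IL-7, stood at 18.3, 19.8 and 15.3 CPM against 137, 137 and 127 CPM (-2.91 ± 0.087). Slfn2 (1.53), Foxp1 (1.35) and Btg1 (0.46), which are known to hold T cells at rest, rose. Tcf7, which encodes TCF-1 of memory precursors, averaged 39.1 against 220 CPM (-2.50 ± 0.051). Among 29 fate factors 10 rose and 14 fell (median -0.17). Zeb2, an effector factor, averaged 107 against 0.832 CPM (6.99 ± 0.23), and Ahr 45.6 against 3.09 CPM. Tbx21 (T-bet) rose by 0.64, Eomes fell by 1.94, and Prdm1 was not called (13.4 against 15 CPM). Prdm1 was called lower with library sizes alone (-0.38) and without replicate 1 of the stimulated Batf3-vector libraries (-0.315).

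Receptors and signal carriers of cytokines went both ways. Il2ra, the inducible chain of the IL-2 receptor, averaged 1454 against 444 CPM (1.71 ± 0.034), while Il2rb, the chain shared by the IL-2 and IL-15 receptors, fell to 421 CPM against 1328 CPM (-1.66). Il1rl1 (ST2) averaged 120 against 1.64 CPM. Ifngr1 (-4.42), Ifnar2 (-2.77), Ifngr2 (-2.08) and Ifnar1 (-1.81), which make up the interferon receptors, fell. In all 8 of 24 receptors rose and 15 fell (median -0.40). Stat5a stood at 1054, 1054 and 1081 CPM in stimulated cells against 65.9, 66.5 and 66.1 CPM in non-stimulated cells (4.01 ± 0.042), and Jak2 rose by 2.45. Stat2 (-2.45), Socs2 (-2.01), Socs1 (-1.72) and Jak1 (-1.70) fell. Of 21 genes of this list, 12 rose and 8 fell (median 0.18), and under scaling by library size alone 9 rose and 9 fell.

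Genes that interferons induce were lower as a group in stimulated cells, in the same libraries where Ifng was at its highest. Of 39 interferon-stimulated genes 35 fell and 3 rose, with a median log2 change of -2.56. Mx1, annotated as a polymorphic pseudogene in this reference, stood at 20.3, 20.2 and 21.2 CPM in stimulated cells against 389, 383 and 380 CPM in non-stimulated cells (-4.22 ± 0.061). Gbp2, a guanylate-binding protein gene that responds to interferon gamma, stood at 150, 146 and 147 CPM against 1162, 1198 and 1189 CPM (-3.00 ± 0.037). Ifi213 (-3.99), Oas2 (-3.64) and Igtp (-3.07) fell as well. The 3 that rose were Cxcl9 (1.06), Cxcl10 (0.49) and Oasl1 (0.24), the last not called with library sizes alone (0.02). Genes of MHC class I presentation fell in 15 of 17 cases (median -0.96), led by the immunoproteasome genes Psmb10 (-2.57), Psmb8 (-2.30) and Psmb9 (-2.29). H2-K1 averaged 1760.2 against 2606 CPM (-0.57), and Cd74, the MHC class II invariant chain, rose by 2.88.

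**Figure D2:**
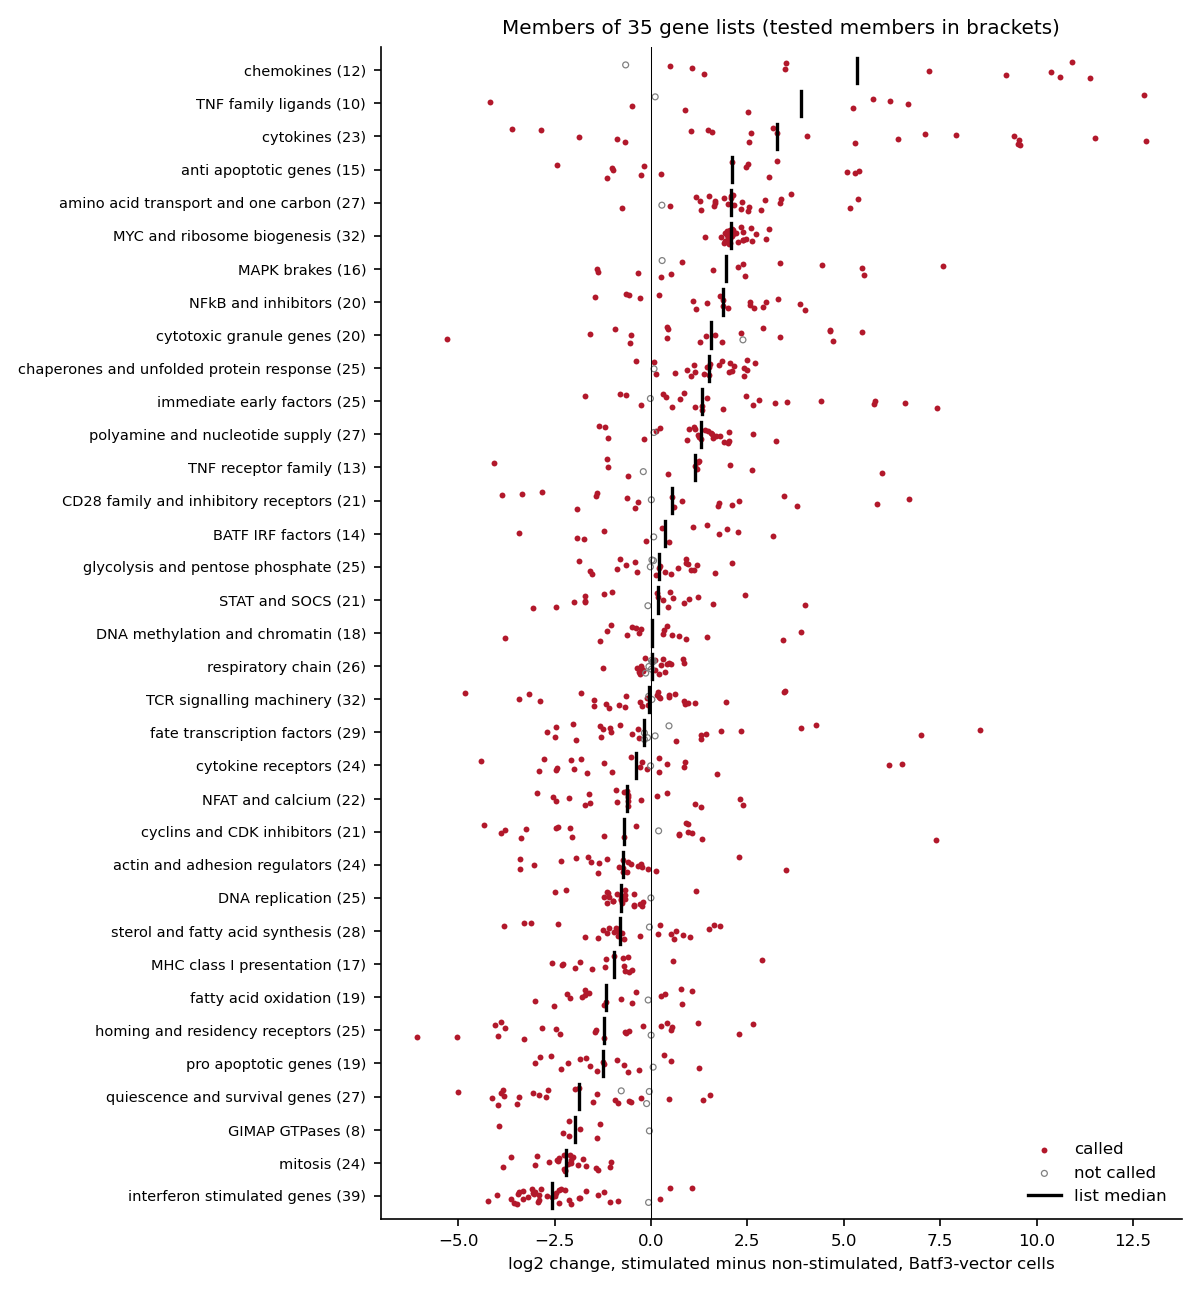
Log2 change (stimulated minus non-stimulated Batf3-vector cells) of every tested member of 35 gene lists, ordered by list median. Chemokines lie highest (median 5.35) and interferon-stimulated genes lowest (median -2.56), and points for genes with no count in a group, such as Cd70 and Il13, are fitted values and not measured folds.

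Growth genes rose nearly without exception. Myc stood at 1196, 1181 and 1228 CPM in stimulated cells against 312, 290 and 284 CPM in non-stimulated cells (2.02 ± 0.035). All 32 genes of the MYC and ribosome biogenesis list rose, within a narrow band around a median of 2.08, from Bop1 (1.40) to Ppan (3.07). Ncl, nucleolin, averaged 3768 against 720 CPM and Npm1 3254 against 619 CPM, and the list held 1.87% of counts in stimulated and 0.46% in non-stimulated cells. Amino acid transport, one-carbon and amino acid stress genes rose in 25 of 27 cases (median 2.08). Slc7a5, the leucine transporter, averaged 814 against 112 CPM (2.86), Slc1a4 149 against 4.18 CPM, and Asns, asparagine synthetase, 296 against 28.8 CPM. Slc7a11, the cystine transporter, was the 1 that fell (-0.76). Polyamine and nucleotide genes rose in 22 of 27 cases (median 1.29), with Srm, spermidine synthase, at 3.24 and Ctps, CTP synthase, at 2.64. Tyms, which makes thymidylate and belongs to the S phase programme, fell by 1.19 on the log2 scale.

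Other metabolic lists moved less or downward. Glycolysis genes had 14 of 25 higher and 8 lower (median 0.21), with Slc16a1, a lactate transporter, at 2.10 and Hk2 at 1.67, against Pdk1 at -1.87, Pfkm at -1.57 and Hk1 at -1.53. Under scaling by library size alone 11 were higher and 11 lower. Respiratory chain genes lay near no change (11 higher and 9 lower of 26, median 0.03). Fatty acid oxidation genes fell in 13 of 19 cases (median -1.17), with Acadl at -3.01 and Cpt1a, the gatekeeper of mitochondrial fatty acid import, at -2.51. Sterol and fatty acid synthesis genes went both ways. Fasn (1.78) and Acaca (1.65), which build fatty acids, rose, and Scd2 (-3.29) and Elovl6 (-3.10), which desaturate and elongate them, and the sterol exporter Abcg1 (-3.81) fell, with 10 of 28 higher and 17 lower (median -0.79). Chaperone genes rose in 23 of 25 cases (median 1.51), among them Hspd1 at 1258 against 193 CPM and Hspa5 (BiP) at 2389 against 450 CPM.

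Anti-apoptotic genes moved in both directions. Bcl2l1, an NF-kB target that encodes BCL-XL, averaged 482 against 57.7 CPM (3.06 ± 0.044), and Bcl2a1a, Bcl2a1b and Bcl2a1d rose by 5.30, 5.07 and 5.39, although reads of these near-identical copies may be shared between them. Bcl2, a target of IL-7 and IL-15 signals, stood at 130, 131 and 128 CPM in stimulated cells against 279, 292 and 288 CPM in non-stimulated cells (-1.14 ± 0.04). Of 15 anti-apoptotic genes 9 rose and 6 fell (median 2.10). Of 19 pro-apoptotic genes 3 rose and 15 fell (median -1.25), led by Bnip3l (-3.02), Casp9 (-2.87) and Apaf1 (-2.59), and Bcl2l11, which encodes BIM, fell by 0.60.

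Cell cycle genes fell at 6 h. All 24 mitosis genes fell, with a median of -2.19, and Mki67 stood at 165, 167 and 158 CPM in stimulated cells against 743, 794 and 778 CPM in non-stimulated cells (-2.24 ± 0.037). Of 25 DNA replication genes 23 fell and 1 rose (median -0.78), with Rrm2 (-2.50) and Lig1 (-2.19) lowest. Orc1, a subunit of the origin recognition complex, was the riser, at 18.5, 20.1 and 20 CPM against 8.73, 8.52 and 8.91 CPM (1.16 ± 0.10). Pcna was not called, at 292 CPM in both groups. Of 21 cyclins and inhibitors 8 rose and 12 fell (median -0.70). Ccnd2, a D cyclin of lymphocytes, averaged 1538 against 615 CPM and Ccnd1 51.8 against 0.299 CPM, while Ccnd3 (-3.37), E2f2 (-4.34) and Cdkn2c (-3.78) fell. All but 1 of 8 GIMAP genes, small GTPases of lymphocyte survival, fell (median -1.97), and Gimap5 was not called. Actin and adhesion genes fell in 21 of 24 cases (median -0.73), among them Coro1a at 147 against 1195 CPM. Among chromatin genes, 9 of 18 rose and 9 fell (median 0.03). Kdm6b, a demethylase of H3K27, averaged 889 against 59.9 CPM and Dnmt3a 589 against 54.5 CPM, while Dnmt1, the maintenance methyltransferase, fell by 1.32.

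The response of control-vector cells, measured in 6 other libraries, was set beside this one to ask how far the vector altered it. There, 6220 genes (39.6%) were higher and 6384 (40.7%) lower. Of the genes that rose in Batf3-vector cells 88.8% also rose in control-vector cells, and of those that fell 90.3% also fell. The reverse shares were 92.5 and 92.1%. The log2 changes had a Pearson correlation of 0.954 across the 15702 genes, a description across genes, which are not independent replicates. The difference of the responses (Batf3-vector response minus control-vector response) was called positive for 2296 genes (14.6%) and negative for 954 (6.08%), and at least 2-fold for 130 (0.828%) and 114 genes (0.726%). The median difference over all genes was 0.05. Among genes that rose with both vectors the difference was positive for 1319 and negative for 254. Among genes that fell with both vectors it was positive, a smaller fall with the Batf3 vector, for 618 and negative for 448. With library sizes alone 1878 differences were positive and 1126 negative over all genes.

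**Figure D3:**
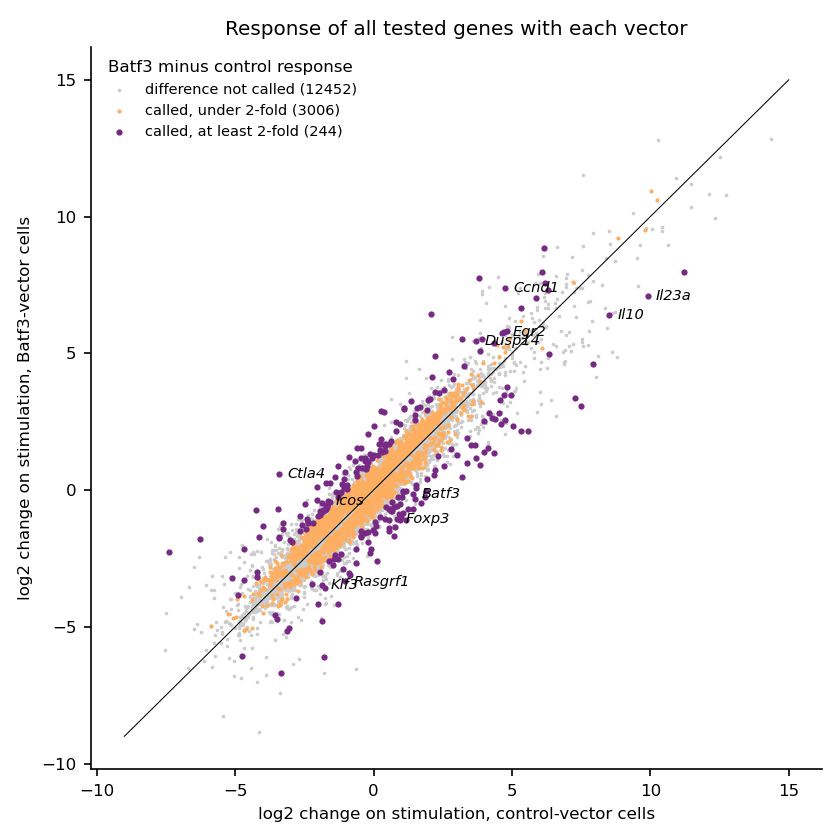
Log2 change on stimulation in Batf3-vector cells (vertical axis) and control-vector cells (horizontal axis) for 15702 genes, with the line of equal response. Most genes follow the line, 244 differ by at least 2-fold with a called difference, and Ctla4 lies above the line with a rise in Batf3-vector cells and a fall in control-vector cells.

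Ctla4 (ENSMUSG00000026011, chromosome 1, 60887000 to 60915832), the inhibitory receptor that competes with CD28 for its ligands, had the largest positive difference of the genes above 10 CPM. In Batf3-vector cells it stood at 256, 254 and 245 CPM with stimulation and 161, 170 and 168 CPM without. In control-vector cells it stood at 8.3, 8.38 and 8.38 CPM with stimulation and 93.4, 89.2 and 87.3 CPM without. It thus rose by 0.60 ± 0.04 with the Batf3 vector and fell by 3.43 on the log2 scale with the control vector, and the difference was 4.03 ± 0.098 (adjusted p = 1.74e-48 by edgeR's test). Icos, another CD28 family member, fell less with the Batf3 vector (-0.41) than with the control vector (-1.66), a difference of 1.26 ± 0.081. Cd2, an adhesion receptor that boosts receptor signals, averaged 279 and 175 CPM in stimulated and non-stimulated Batf3-vector cells and 109 and 171 CPM in the control-vector cells, a difference of 1.31 ± 0.058.

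Genes called in opposite directions numbered 108, of which 65 rose with the Batf3 vector and fell with the control vector, and 15 differed by at least 2-fold. The numbers 108 and 65 depend on the scaling. Some rises with the Batf3 vector were smaller than the shift of about 0.21 under library sizes alone, such as Phc2 (0.10), Lpin2 (0.10) and Ascc3 (0.12). Lgals3, galectin 3, averaged 807 and 712 CPM in stimulated and non-stimulated Batf3-vector cells and 279 and 546 CPM in control-vector cells, with a difference of 1.15 ± 0.049. Its small rise in Batf3-vector cells (0.18) changed sign, to -0.03, under scaling by library size alone. Casz1, a zinc finger factor, rose by 0.67 and fell by 1.04 on the log2 scale in the same order. In the other direction Foxp3, the factor of regulatory T cells, averaged 5.68 and 11.8 CPM in Batf3-vector cells and 1.12 and 0.619 CPM in control-vector cells, a difference of -1.90 ± 0.42, and its stimulated and non-stimulated control-vector libraries overlapped. Actn1, an actin crosslinker, fell by 0.63 with the Batf3 vector and rose by 0.76 with the control vector. Cdc42ep3 fell by 0.25 with the Batf3 vector, but that fall was not called without replicate 3 of the stimulated or replicate 1 of the non-stimulated Batf3-vector libraries (adjusted p = 0.256 and 0.208 by edgeR's test) or with DESeq2 (adjusted p = 0.064). The stimulated and non-stimulated Batf3-vector libraries overlapped in Cdc42ep3.

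**Figure D4:**
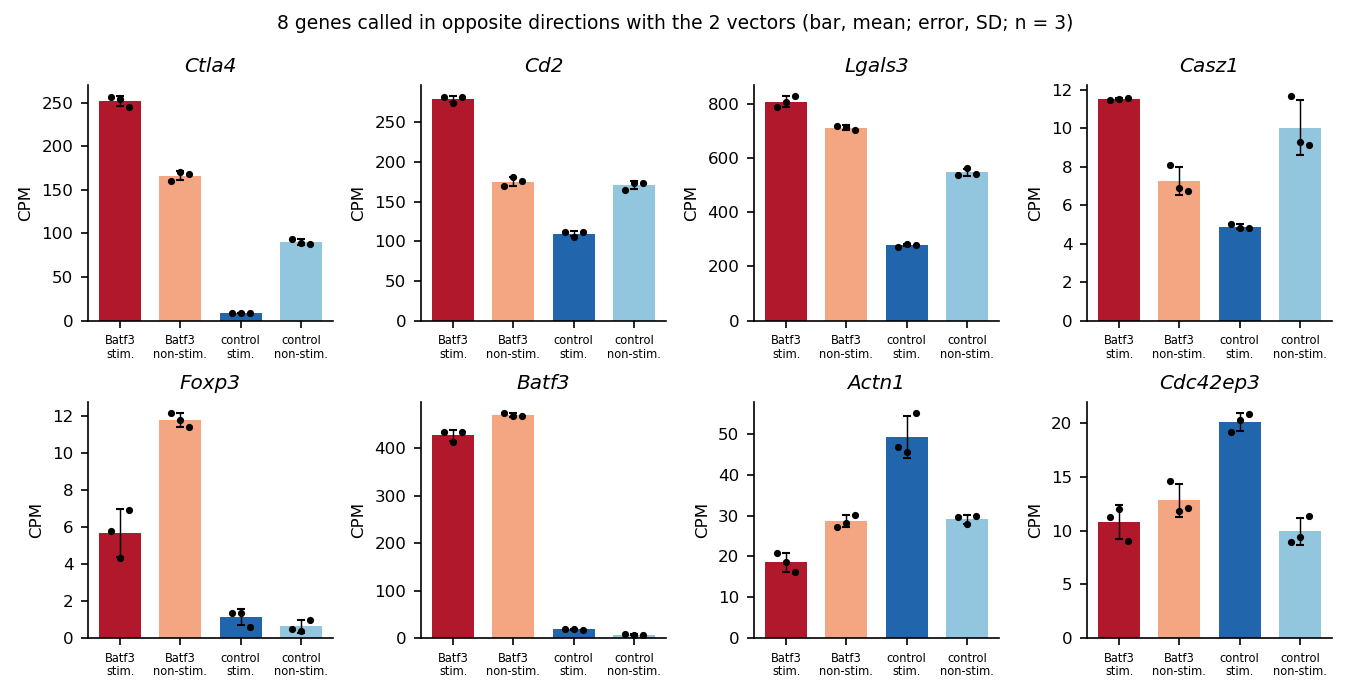
CPM of 8 genes called in opposite directions with the 2 vectors, as mean (bar), SD (error bar) and single libraries (points), 3 libraries per group. By their means, Ctla4, Cd2, Lgals3 and Casz1 are higher with stimulation in Batf3-vector cells and lower in control-vector cells, and Foxp3, Batf3, Actn1 and Cdc42ep3 the reverse. Single libraries overlap for Cdc42ep3 in Batf3-vector cells and for Foxp3 in control-vector cells.

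Cytokine genes differed one by one. Il23a averaged 71.4 and 0.512 CPM in stimulated and non-stimulated Batf3-vector cells and 305 and 0.309 CPM in control-vector cells, a difference of -2.80 ± 0.49. Il10 averaged 17.1 and 0.192 CPM against 51.3 and 0.133 CPM (-2.09 ± 0.77). The Il10 difference was not called without low-count filtering (adjusted p = 0.0628 by edgeR's test) or without replicate 2 or 3 of the non-stimulated control-vector libraries or replicate 1 or 3 of the non-stimulated Batf3-vector libraries (0.0592 to 0.164). Il24 had a difference of -1.80. For Ifng the difference was small (-0.27 ± 0.089), and not called without replicate 2 of the non-stimulated Batf3-vector libraries (adjusted p = 0.0669 by edgeR's test), and for Il2 it was not called (-0.28, adjusted p = 0.204 by edgeR's test). Xcl1 had a difference of 0.89 ± 0.12, with a lower non-stimulated level in Batf3-vector cells (5.35 CPM) than in control-vector cells (10.7 CPM) at like stimulated levels (10421 and 11178 CPM). Of the cytokine list 4 differences were positive and 4 negative. In the cytotoxic granule list 10 of 20 differences were positive and none negative. With RLE size factors, library sizes alone or DESeq2, 8 were positive and none negative. Gzmb rose by 1.27 with the Batf3 vector and by 0.34 with the control vector (0.93 ± 0.046), where Batf3-vector cells held 4396 and 1817 CPM and control-vector cells 3576 and 2816 CPM in stimulated and non-stimulated cultures.

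Several growth and cycle lists had called differences in a single direction. For MYC and ribosome biogenesis, 29 of 32 were positive, with median rises of 2.08 with the Batf3 vector and 1.75 with the control vector. Myc itself averaged 1202 and 296 CPM in Batf3-vector cells and 1269 and 411 CPM in control-vector cells, so stimulated levels were close and the non-stimulated level was lower with the Batf3 vector. For chaperones 20 of 25 differences were positive, for polyamine and nucleotide genes 18 of 27, and for glycolysis 16 of 25, none of them negative (with library sizes alone, 14 positive and 1 negative for glycolysis). The MYC list held 1.87 and 0.46% of counts in stimulated and non-stimulated Batf3-vector cells, and 1.89 and 0.59% in control-vector cells. Chaperones held 1.95 and 0.81% against 2.07 and 1.09%, and polyamine and nucleotide genes 0.68 and 0.29% against 0.70 and 0.35%. In these lists the non-stimulated share was lower with the Batf3 vector and the stimulated share no higher. Glycolysis held 0.67 and 0.56% against 0.66 and 0.64%. For DNA replication 23 of 25 were positive and none negative, with median falls of -0.78 with the Batf3 vector and -1.55 with the control vector. Mcm2, of the replicative helicase, averaged 99.6 and 135 CPM in Batf3-vector cells (-0.44) and 70 and 207 CPM in control-vector cells (-1.56), a difference of 1.13 ± 0.064. For mitosis genes 15 of 24 were positive and none negative, with medians of -2.19 and -2.48. Ccnd1, cyclin D1, rose to 51.8 CPM against 0.299 CPM with the Batf3 vector and to 25.4 CPM against 0.929 CPM with the control vector, a difference of 2.64 ± 0.46. Egr2 rose more with the Batf3 vector (5.78) than with the control vector (4.72), and the difference was 1.06 ± 0.11, whereas Nr4a1 rose by 3.54 with each. These lists were chosen with earlier results known. The counts describe them beside the 14.6% of all genes with a positive and the 6.08% with a negative difference. With so small a negative share, a list without a negative difference says little by itself. Other lists had none either, such as sterol and fatty acid synthesis (10 of 28 positive), TNF family receptors (6 of 13) and CD8 T cell markers (8 of 9).

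**Figure D5:**
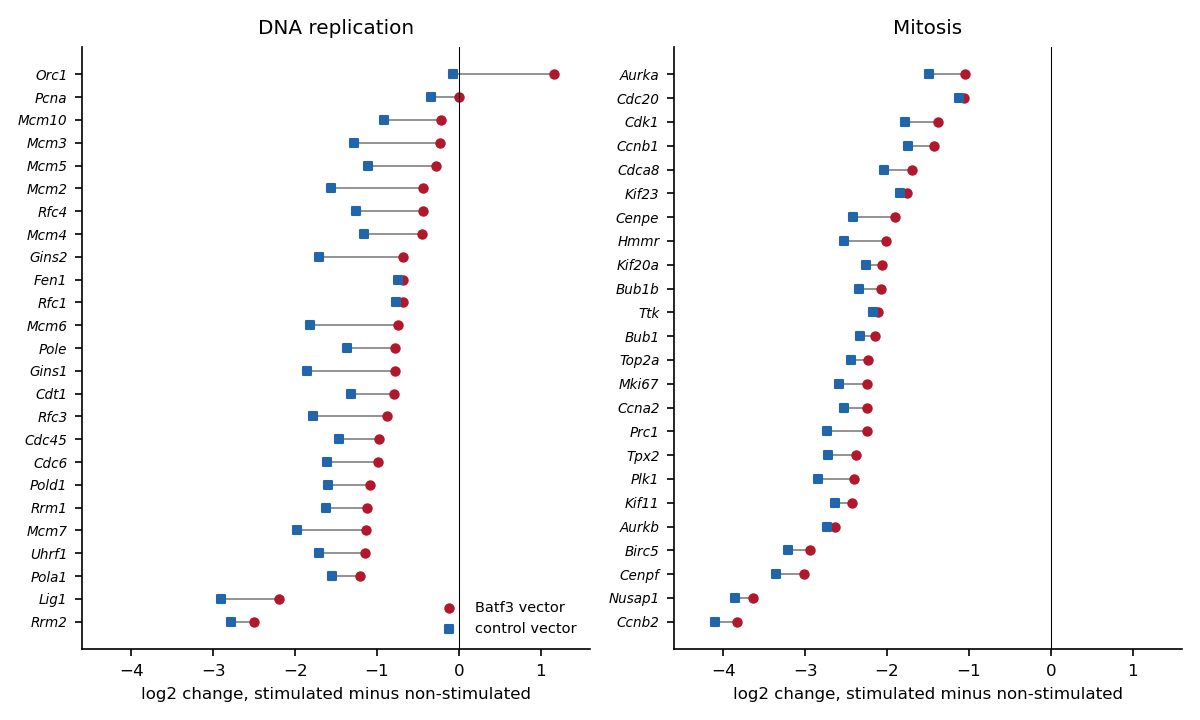
Log2 change on stimulation of 25 DNA replication genes (left) and 24 mitosis genes (right) in Batf3-vector (circles) and control-vector cells (squares), ordered by the change in Batf3-vector cells. In DNA replication the fall is smaller with the Batf3 vector (medians -0.78 and -1.55), while in mitosis the values lie closer (medians -2.19 and -2.48).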

How the data were processed

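RNA was measured in 12 libraries, 3 per combination of vector and culture, of which the 6 Batf3-vector libraries make up the comparison and the 6 control-vector libraries its reference. Per the labels, libraries were made from 100 ng of total RNA by poly-A capture with a stranded kit, 15 PCR cycles and fragments of about 320 bp. The authors deposited 1 table of raw read counts per Ensembl gene, made with STAR 2.7 and featureCounts on GRCm38 per the submitters' processing notes. For the annotation release, the strand setting and reads with several matches, no choice is stated in the labels, so antisense and near-identical genes are uncertain.

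Counts were filtered with edgeR's filterByExpr (15702 of 55335 genes) and fitted in edgeR 4.0.16 (R 4.3.3) by robust quasi-likelihood, with TMM factors, 4 group means, all 12 libraries and 8 residual degrees of freedom. Contrasts were the Batf3-vector response, the control-vector response and their difference. Tests were two-sided, with Benjamini-Hochberg adjustment over all tested genes. The fit was tested on simulated data with its own dispersions and a change between the Batf3-vector groups in 200 genes only. That setting cannot test the scaling of data in which most genes change. Log2 changes carry an SE from the fit, and CPM has no pseudocount. Ratios of genes with 1 to 3 counts in a group carry an exact 95% interval, and floors of 3 counts over a group (0.0640 CPM in non-stimulated Batf3-vector cells) replace 0. Both cover counting error only, since PCR reads without molecular identifiers are not independent molecules.

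Coordinates come from GENCODE M21 (55154 identifiers matched, 181 did not), and promoters from RefSeq (10049 of 15700 tested symbols matched). Named genes were the 15 largest rises and falls, up to 3 called members of each list per direction, the largest differences, genes called in opposite directions and a fixed set. Other members are named to account for their list. Results that need items withheld for evaluation are not reported here. The gene lists, the members named and the tests were chosen with earlier results of these data known. Alternatives were other normalisations, DESeq2 1.42.0, no filter on low counts, a replicate block, the 6 libraries alone and leaving out each library.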

Additional observations from a re-analysis of the deposited data

Results flagged for a closer look

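The genes here were singled out because the difference between the responses (Batf3-vector response minus control-vector response) was at least 2-fold and had a Benjamini-Hochberg adjusted p under 0.05 in edgeR's quasi-likelihood fit. No explanation was tested for any of them.

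Positive differences among receptors and signalling genes were 4.03 for Ctla4, 1.31 for Cd2, 1.26 for Icos and 1.15 for Lgals3. Dusp14, a dual-specificity phosphatase, had 1.75, Tnip3, an NF-kB inhibitor, 1.35, Tnfsf11 1.32 and Egr2 1.06. Bcl2a1b had 1.24 and Bcl2a1d 1.04, and reads of these near-identical copies may be shared. Among cycle and DNA repair genes the difference was 2.64 for Ccnd1, 1.46 for Ung, which encodes uracil-DNA glycosylase, and 1.23 for Orc1. Ung averaged 29.1 and 11.6 CPM in stimulated and non-stimulated Batf3-vector cells and 19.7 and 21.6 CPM in control-vector cells.

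Further positive differences were 2.72 for Samd4, 1.87 for Stra6, 1.82 for Arsb, 1.71 for Casz1, 1.57 for Map2k3os and 1.48 for Spp1. Samd4 had 3 counts in all over the 3 non-stimulated Batf3-vector libraries and Stra6 had 7, so their differences rest on few reads. The Stra6 difference was not called without low-count filtering (adjusted p = 0.0793 by edgeR's test), nor without replicate 2 or 3 of the non-stimulated control-vector or replicate 1 or 3 of the non-stimulated Batf3-vector libraries (0.0673 to 0.127). Map2k3os is an antisense gene, and with the strand setting of the counting not given, its reads cannot be told from those of its partner. Arsb, a lysosomal sulfatase, averaged 18 and 48.6 CPM in stimulated and non-stimulated Batf3-vector cells, and 7.31 and 70 CPM in control-vector cells. Spp1, osteopontin, averaged 14.1 and 2.6 CPM in Batf3-vector cells and 18.7 and 9.73 CPM in control-vector cells.

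Negative differences were -3.23 for Cth, -2.80 for Il23a, -2.32 for Rasgrf1, -2.09 for Il10, -1.90 for Foxp3 and -1.80 for Il24. Cth, an enzyme of cysteine synthesis, had 8 counts over the non-stimulated Batf3-vector libraries. Without replicate 2 or 3 of the non-stimulated control-vector or replicate 1 or 3 of the non-stimulated Batf3-vector libraries, neither Cth (adjusted p of 0.0535 to 0.214 by edgeR's test) nor Il10 (0.0592 to 0.164) kept a called difference, and Il10 also lost it without low-count filtering (0.0628). Sulf2 had -1.73, Klf3 -1.63, Sox4 -1.62, Batf3 -1.58, Actn1 -1.38, Itgb3 -1.29 and Cdc42ep3 -1.27. Klf3, a repressor related to Klf2, averaged 4.8 and 53.6 CPM in stimulated and non-stimulated Batf3-vector cells and 9.6 and 34.7 CPM in control-vector cells. Batf3 itself counts vector and endogenous transcripts together.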

How the results depend on the processing

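Calls of the Batf3-vector response (6477 higher, 6508 lower) stayed within 1.5 times of these counts under every alternative run. Genes higher numbered 6474 with RLE size factors, 5254 with library sizes alone, 6763 without a filter on low counts, 6245 with DESeq2 and 6285 with the 6 Batf3-vector libraries alone. Leaving out 1 library gave 6196 to 6555 genes higher and 6455 to 6799 lower. With the replicate block 6457 genes were higher and 6490 lower. Same-numbered libraries did not deviate together (correlations of -0.156 to 0.0844, median -0.01, against -0.211 to 0.161 for other pairs). These values gave no sign of pairing by number, but deviations among 3 technical replicates cannot exclude it. The difference between the vectors' responses depended more on the method. Positive differences numbered 1524 without a filter on low counts against 2296, while leaving out 1 library gave 1565 to 2263 positive and 824 to 1137 negative ones. With DESeq2 the at least 2-fold differences numbered 68 positive and 42 negative, against 130 and 114. The cause was not tested. With library sizes alone the change of Actn4 became -0.10 and that of Lgals3 -0.033. Among 272 named genes, 6 had a changed call in the Batf3-vector response and 46 in the difference under at least 1 alternative. Differences for which DESeq2 gave no adjusted p were left out of that comparison. At this depth a gene under about 0.2 CPM in a library rested on 3 counts or fewer, and 44.2% of tested genes under 1 CPM were called against 96.2% above 100 CPM.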

Other observations

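Genes outside the coding lists also differed by class. Of 57 tested small nucleolar RNA genes 45 were higher and 1 lower in stimulated Batf3-vector cells, with a median log2 change of 1.53. Of all tested genes 41.2% were higher and 41.4% lower. Snora57, which averaged 2.15 CPM in stimulated and 0.256 CPM in non-stimulated cells, rose by 3.03 ± 0.50 (SE), and Snord87 rose by 1.70 ± 0.29. Rn7sk, the RNA that holds the elongation factor P-TEFb inactive, stood at 35.9, 36.9 and 40 CPM in stimulated cells against 10.6, 13.1 and 11.8 CPM in non-stimulated cells, and the libraries did not overlap. The small nucleolar RNA genes are short and mostly lie within host genes, and reads of unspliced host transcripts cannot be told from them here. Since the libraries were made by poly-A capture, CPM of these RNAs and of Rn7sk need not follow their total levels.

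Constant genes of antigen receptors mostly went down. Of 8 tested T cell receptor constant genes 7 fell and 1 rose, where 41.4% of all tested genes fell. The falls differed in size. Trbc1 and Trbc2, of the beta chain, changed by -0.35 (628 against 799 CPM) and -0.15 (929 against 1031 CPM). Trac, the alpha constant gene, averaged 322 CPM in stimulated and 200 CPM in non-stimulated cells and rose by 0.69 ± 0.04. Tcrg-C1, of the gamma chain, stood at 2.01, 2.52 and 2.14 CPM against 62.8, 69.5 and 66.7 CPM. Trdc, of the delta chain, averaged 22 against 86.1 CPM. The 3 tested immunoglobulin constant genes, Ighm, Igha and Ighd, fell by 3.37, 2.67 and 3.68 on the log2 scale.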
